A study of Mus with 8 samples.

Results

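The matrix-binding integrins described here are the products of 10 genes, Itga1, Itga2, Itga3, Itga5, Itga6, Itga11, Itgav, Itgb1, Itgb3 and Itgb5, which were taken as a fixed list and found on the array through the RefSeq transcript of each probe. All 10 had probes (16 in all), and 9 were bright enough to be tested among 31281 genes and transcripts. RNA came from whole subcutaneous tumours of MC38 cells, a mouse colon cancer line. Of these, 4 had grown in Ext1S100a4Cre hosts, mice on a B6 background with both Ext1 alleles floxed and a Cre transgene driven by S100a4. The other 4 had grown in wild-type B6 hosts (WT host), and tumours of either host were removed 25 to 30 days after transplantation. Ext1 encodes a polymerase of heparan sulfate, and the series asks, by its title, how colon tumours grow when host fibroblasts make less of it. The MC38 cells themselves carried no deletion, S100a4 is also active outside fibroblasts, and the labels name no floxed or Cre-only control, so Cre and the loss of Ext1 cannot be told apart.

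Integrins are pairs of an alpha and a beta chain that span the cell membrane and tie the surrounding matrix to the actin cytoskeleton. The beta 1 chain, encoded by Itgb1, pairs with many alpha chains, among them collagen receptors (alpha 1, alpha 2 and alpha 11), laminin receptors (alpha 3 and alpha 6) and the fibronectin receptor alpha 5. The alpha V chain pairs with beta 1, beta 3, beta 5 and others, and reads the RGD motif of fibronectin, vitronectin and osteopontin. In tumours these chains are made by cancer cells, fibroblasts, vessels and blood-derived cells alike. In whole tumours, fewer cells of a type and less RNA per cell cannot be told apart.

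Levels are log2 intensities relative to the 75th percentile of the array, so 0 is that percentile and a step of 1 is a doubling. The 75th percentile itself was lowest in Ext1S100a4Cre host tumours 1 and 4 (854.8 and 846.9, against 1016.6 to 1265.4 in the other 6). These tumours also had the fewest probes well above background (65.66% and 65.96%, against 68.84% to 71.1%), and their 4 measured Y-linked genes were not above background, unlike those of the other 6. The labels do not give the sex of the hosts, and its part in the differences was not tested. Ext1 measured -0.62, -0.27, -0.54 and -0.42 in the Ext1S100a4Cre host tumours, against -0.55, -0.28, 0.24 and -0.14 in the WT host tumours, a difference of -0.28 (SE 0.18, limma adjusted p = 0.747). Where its probe lies relative to the deleted part is not given in the sources used here, and the tumour cells keep the gene, so this value does not check the genotype. Of the colon epithelial markers, 10 of 10 were measured, and Krt18, a keratin of simple epithelia, measured 4.84 to 6.16 in the Ext1S100a4Cre host and 4.95 to 5.71 in the WT host.

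No matrix-binding integrin passed the threshold between hosts, and 8 of 9 had a lower mean in the Ext1S100a4Cre host. The widest difference was that of Itga11 (-1.93 log2, a ratio of 0.262), with tumours of the same host up to 4.07 log2 units apart. Itgav, at -0.47, was the member whose tumours did not overlap between hosts, and Itgb1, the shared beta chain, differed by -0.14. Limma called 0 of 9 members at an adjusted p of 0.05, where 0% of all tested genes were called, and the members' adjusted p ran between 0.747 and 0.976. At an unadjusted p under 0.05 there was 1 member of 9 (11.1%), against 6.55% of all tested genes. A lower mean was found in 88.9% of members and in 41.9% of all tested genes, and the median difference was -0.38 for the members and 0.0504 for all tested genes. That last share depends on the scaling: 79.2% of all tested genes had a lower mean in the unscaled series matrix and 29.6% with normexp background correction, where the members lower in mean numbered 9 and 7. Median differences over all genes were -0.199 and 0.102 in these settings, and those of the members -0.63 and -0.28.

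**Figure D1:**
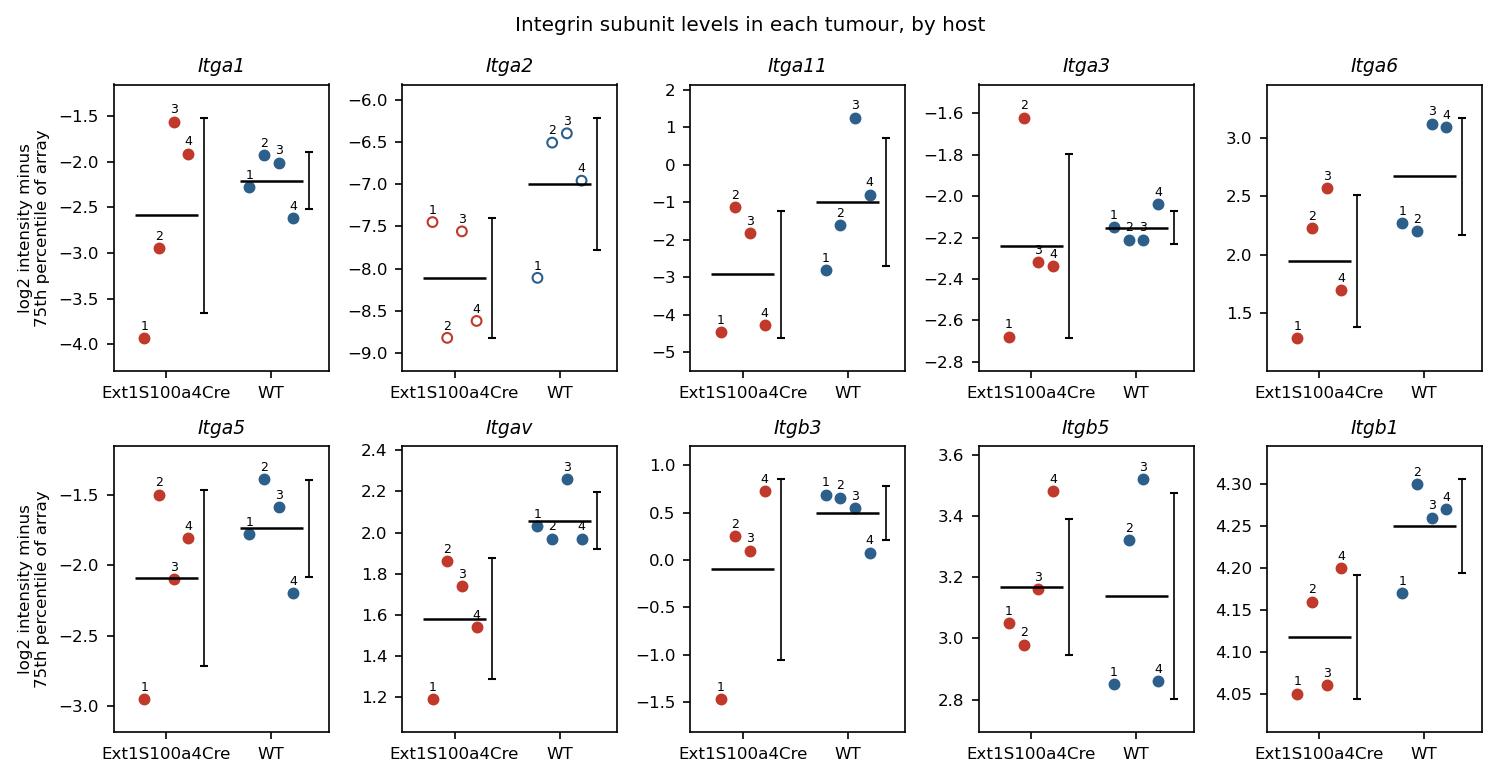
Level of each integrin gene (log2 intensity minus the array's 75th percentile, main probe, own scale per panel) in the 4 Ext1S100a4Cre host tumours (red, left) and the 4 WT host tumours (blue, right). Numbers are tumour numbers, bars are means and whiskers 1 SD. Open circles mark Itga2, which was above background in 2 WT host tumours only. Ext1S100a4Cre host tumour 1 is the lowest point for 8 of the 9 tested genes.

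Ext1S100a4Cre host tumour 1 was the lowest of the 8 tumours for 8 of 9 members, all but Itgb5. WT host tumour 3 was the highest for 4 of them. Averaged over the 9 members relative to the 8 tumours, Ext1S100a4Cre host tumours stood at -1.01, 0.12, 0.07 and -0.21, against -0.02, 0.24, 0.66 and 0.16 for the WT host tumours. Without Ext1S100a4Cre host tumour 1 the median difference of the members was -0.11, with 6 of 9 lower and 0 at an unadjusted p under 0.05. Without its tumours 1 and 4 together the median was -0.14, with 8 of 9 lower and again 0 at that p.

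Tumour 1 of the Ext1S100a4Cre host and tumour 3 of the WT host also stood at the ends of the fibroblast, macrophage and endothelial marker lists. Means of 13 fibroblast markers, relative to the 8 tumours, ranged over -2.84 to 1.07 in the Ext1S100a4Cre host and over -0.04 to 2.03 in the WT host, and 12 of the 13 had a lower mean in the Ext1S100a4Cre host. Macrophage markers, 12 of 12 lower, ranged over -2.72 to 0.63 and over -0.10 to 2.33, and endothelial markers, 10 of 10 lower, over -1.47 to 0.19 and over 0.04 to 0.71. Without Ext1S100a4Cre host tumours 1 and 4, 4 of 13 fibroblast markers were lower in mean and their median difference turned to 0.31, against -1.09 with all tumours, while 10 of 12 macrophage and 7 of 10 endothelial markers were lower. Pericyte and smooth muscle markers, 6 of 8 lower, ranged over -0.85 to 0.69 in the Ext1S100a4Cre host, with tumour 3 the highest of all, and over -0.37 to 0.52 in the WT host. Skeletal muscle markers were higher in mean for 11 of 11, with a median of 1.97 and 6 at an unadjusted p under 0.05, where 4.39% of all tested genes were higher at that p. Dpt, a dermatopontin gene of fibroblasts with the widest difference of the 13, was above background in 2 of 4 Ext1S100a4Cre host tumours and in 4 of 4 WT host tumours. It measured -8.66 and -8.56 in Ext1S100a4Cre host tumours 1 and 4. In tumours 2 and 3 of that host it measured -3.90 and -3.26, inside the WT range of -4.90 to 0.58. The brightest fibroblast markers, Thy1, Dcn and Fbln2, differed by -0.28, -1.55 and 0.24. Colon epithelial markers, 2 of 10 lower, ranged over -0.34 to 0.50 and over -0.28 to 0.34. The part of cell content in the integrin differences was not tested.

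**Figure D2:**
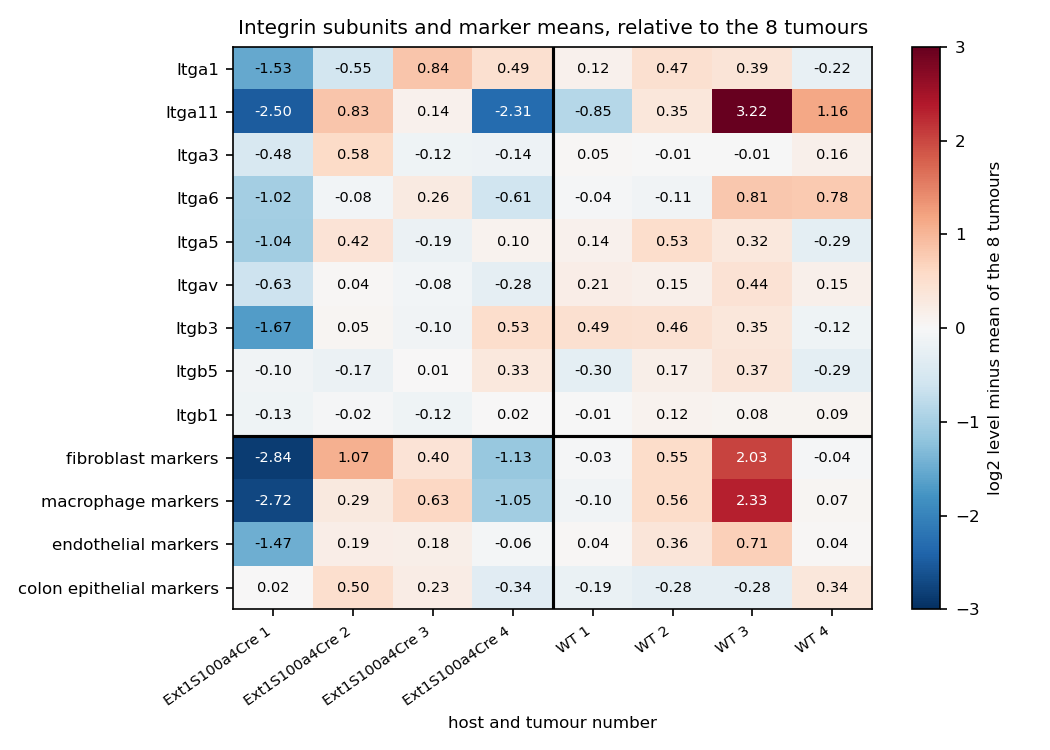
Level of each tested integrin gene, and of the mean of 4 marker lists, relative to its mean over the 8 tumours (log2, colour and printed value), with Ext1S100a4Cre host tumours left of the WT host tumours. Itga11 runs from -2.50 to 3.22 and Itgb1 from -0.13 to 0.12, and the fibroblast and macrophage rows share their lowest and highest tumours with Itga11.

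Among the collagen receptors, Itga11 encodes the alpha chain of the fibrillar collagen receptor of fibroblasts. It measured -4.46, -1.13, -1.82 and -4.27 in the Ext1S100a4Cre host tumours, against -2.81, -1.61, 1.26 and -0.80 in the WT host tumours. Tumours 1 and 4 of the Ext1S100a4Cre host lay below every WT host tumour, while its tumours 2 and 3 lay inside the WT range. The difference was -1.93 (SE 1.04, 95% interval -4.32 to 0.46, limma adjusted p = 0.747, exact permutation p = 0.171, two-sided). It was -1.42 without Ext1S100a4Cre host tumour 1 and -0.49 without tumours 1 and 4. Leaving out WT host tumour 3 gave -1.18. In the upper slide row the hosts differed by -0.59 and in the lower by -3.27. The lower row held WT host tumour 3 (1.26) and Ext1S100a4Cre host tumour 4 (-4.27).

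Itga1 encodes the alpha chain of a receptor with a preference for collagen IV, found on smooth muscle, vessels and fibroblasts. It measured -3.93, -2.95, -1.56 and -1.91 in the Ext1S100a4Cre host tumours, against -2.28, -1.93, -2.01 and -2.62 in the WT host tumours. The Ext1S100a4Cre host tumours lay to either side of the WT range, 2 below it and 2 above it, with an SD of 1.07 against 0.31. The difference was -0.38 (SE 0.49, adjusted p = 0.839, exact permutation p = 0.629). It was 0.07 without Ext1S100a4Cre host tumour 1, and -1.34 and 0.58 in the upper and lower slide rows. A second Itga1 probe differed by -0.33 (SE 0.41).

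Itga2 encodes the alpha chain of a collagen receptor of platelets and epithelia. It was near background: 0 of 4 tumours of the Ext1S100a4Cre host and 2 of 4 of the WT host had a reading well above background, and the gene was not among the tested genes. Readings were -7.45, -8.82, -7.56 and -8.62 in the Ext1S100a4Cre host, against -8.11, -6.51, -6.40 and -6.96 in the WT host. The lowest signals well above background on these arrays lay between -7.05 and -6.36, so most of these readings are bounds and no fold is given.

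Of the laminin receptors, Itga6, whose chain binds laminins of the basement membrane, was bright in every tumour. It measured 1.29, 2.23, 2.57 and 1.70 in the Ext1S100a4Cre host tumours, against 2.27, 2.20, 3.12 and 3.09 in the WT host tumours. The lowest values were those of Ext1S100a4Cre host tumours 1 and 4 and the highest those of WT host tumours 3 and 4, with the other 4 tumours mixed between 2.20 and 2.57. The difference was -0.72 (SE 0.34, 95% interval -1.51 to 0.07, adjusted p = 0.747, exact permutation p = 0.143), or -0.27 without tumours 1 and 4. With the slide row as a block its unadjusted p was 0.0357 and its adjusted p 0.683, and the rows gave -0.47 and -0.97.

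A second Itga6 probe of the same transcript separated the hosts, as did 4.52% of all tested genes in either direction and 1.14% in this one. It measured 0.06, 1.06, 1.21 and 0.17 in the Ext1S100a4Cre host tumours, against 1.31, 1.26, 1.89 and 2.07 in the WT host tumours. Tested with every probe on its own, it differed by -1.01 (SE 0.33, limma adjusted p = 0.771, unadjusted p = 0.0144). Its exact permutation p was 0.0286, the smallest that 4 against 4 tumours allow and the value of any probe without overlap. Another, dim probe of another Itga6 transcript, above background in 2 Ext1S100a4Cre host and 3 WT host tumours, differed by -0.40 (SE 0.39).

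Itga3 encodes the alpha chain of an epithelial laminin receptor. It measured -2.68, -1.62, -2.32 and -2.34 in the Ext1S100a4Cre host tumours, against -2.15, -2.21, -2.21 and -2.04 in the WT host tumours. The WT host tumours fell within 0.17 of each other and the Ext1S100a4Cre host tumours spread to either side of them. The difference was -0.09 (SE 0.22, 95% interval -0.60 to 0.41, adjusted p = 0.918, exact permutation p = 0.686), with a sign that turned to 0.06 without Ext1S100a4Cre host tumour 1 and to 0.00 with normexp. A second Itga3 probe gave -0.36 (SE 0.22), with WT host tumour 3 at -4.05 and the other 7 tumours at -5.15 to -4.75.

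Among the RGD receptors, Itgav encodes the alpha V chain, which with its beta partners also releases TGF-beta from its latent form. It measured 1.19, 1.86, 1.74 and 1.54 in the Ext1S100a4Cre host tumours, against 2.03, 1.97, 2.26 and 1.97 in the WT host tumours. Every Ext1S100a4Cre host tumour lay below every WT host tumour, as was the case for 4.52% of all tested genes in either direction and 1.14% in this one. The difference was -0.47 (SE 0.17), a ratio of 0.720 with a 95% interval of 0.548 to 0.947. Its exact permutation p was 0.0286, the value of any gene without overlap. The unadjusted limma p was 0.0244, and 978 of the 31281 tested genes had a p as small or smaller, so that the adjusted p was 0.747.

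The Itgav difference was -0.47 in each slide row. It was -0.34 without Ext1S100a4Cre host tumour 1 and -0.26 without tumours 1 and 4, with unadjusted p of 0.055 and 0.152. Ext1S100a4Cre host tumour 2 had a higher fibroblast marker mean (1.07) than WT host tumours 1, 2 and 4 (-0.04 to 0.55), and a lower Itgav level (1.86, against 1.97 to 2.03). Its endothelial marker mean (0.19) lay inside the WT range (0.04 to 0.71). The part of cell content in the Itgav difference was not tested.

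Itga5 encodes the alpha chain of the classical fibronectin receptor. It measured -2.95, -1.5, -2.10 and -1.81 in the Ext1S100a4Cre host tumours, against -1.78, -1.39, -1.59 and -2.20 in the WT host tumours. Except for Ext1S100a4Cre host tumour 1, the tumours of either host lay between -2.20 and -1.39. The difference was -0.35 (SE 0.32, adjusted p = 0.784, exact permutation p = 0.4) and shrank to -0.07 without that tumour.

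The beta 3 chain, encoded by Itgb3, pairs with alpha V on sprouting vessels, macrophages and some tumour cells and with alpha IIb on platelets. Itgb3 measured -1.47, 0.25, 0.10 and 0.73 in the Ext1S100a4Cre host tumours, against 0.69, 0.66, 0.55 and 0.08 in the WT host tumours. Tumour 1 of the Ext1S100a4Cre host alone lay below the WT range, and its tumour 4 was the highest of all. The difference was -0.59 (SE 0.44, adjusted p = 0.756, exact permutation p = 0.371), or -0.13 without tumour 1, and a second probe gave -0.34 (SE 0.26). The slide rows gave -1.28 and 0.10. Itga2b, the platelet partner of the chain, was not bright enough to be tested. The 6 measured platelet markers, 3 lower and 3 higher in mean, had a median difference of 0.09. Pf4, the brightest of them, differed by -1.16 (SE 0.65, limma adjusted p = 0.747), and the others were dim.

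Itgb5, another partner of alpha V and a vitronectin receptor, was the member with the smallest difference. It measured 3.05, 2.98, 3.16 and 3.48 in the Ext1S100a4Cre host tumours, against 2.85, 3.32, 3.52 and 2.86 in the WT host tumours. All 4 Ext1S100a4Cre host tumours lay inside the WT range. The difference was 0.03 (SE 0.20, adjusted p = 0.976, exact permutation p = 0.943), with a 95% interval of the ratio of 0.741 to 1.40, and its sign turned with quantile scaling and in the unscaled series matrix.

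Itgb1, the common beta chain, varied least over the 8 tumours, within 0.25 log2 units. It measured 4.05, 4.16, 4.06 and 4.20 in the Ext1S100a4Cre host tumours, against 4.17, 4.30, 4.26 and 4.27 in the WT host tumours. Of the Ext1S100a4Cre host tumours, 3 of 4 lay below every WT host tumour and tumour 4 lay just above the lowest of them. The difference was -0.14 (SE 0.11, 95% interval of the ratio 0.767 to 1.08, adjusted p = 0.765, exact permutation p = 0.0571). A second Itgb1 probe ran the other way by 0.07 (SE 0.14), so the direction for this gene rests on the choice of probe.

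**Figure D3:**
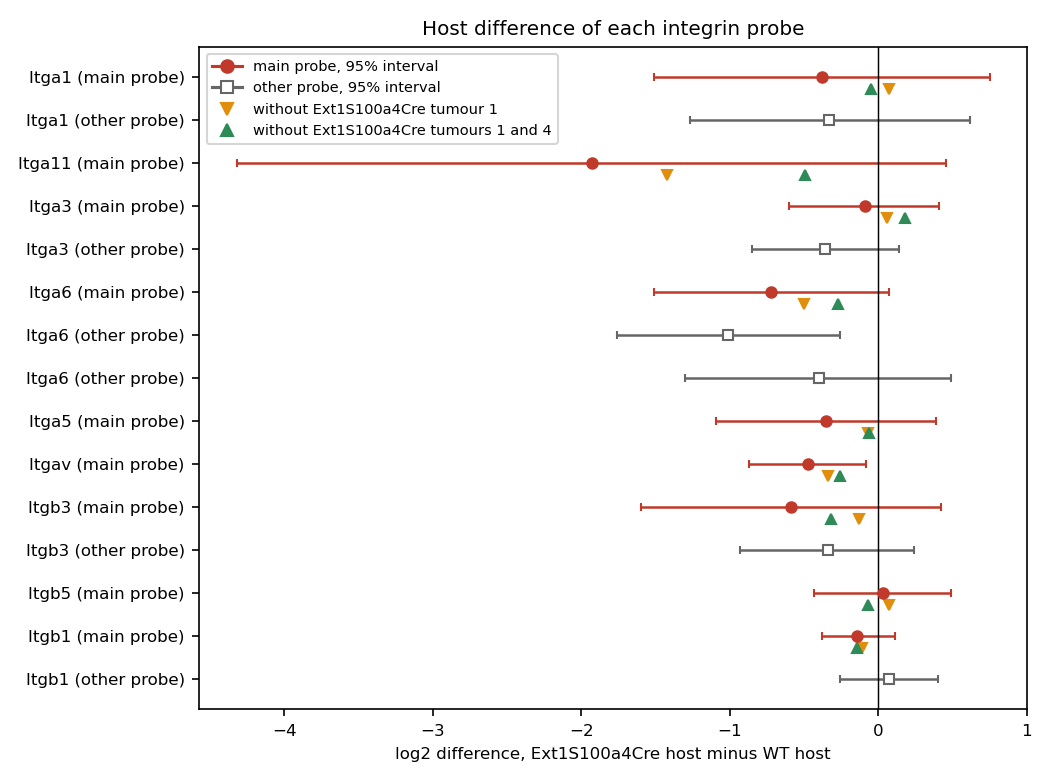
Log2 difference, Ext1S100a4Cre host minus WT host, of each kept integrin probe with its 95% interval (filled circles main probes, open squares other probes of the gene, lines 95% intervals). Triangles give the main probe without Ext1S100a4Cre host tumour 1 (pointing down) and without its tumours 1 and 4 (pointing up). The main probe of Itgav and the second probe of Itga6 have intervals below 0, and the interval of Itga11 is the widest, from -4.32 to 0.46.

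In order of spread over the 8 tumours, the SD was 1.88 for Itga11, 0.76 for Itga1, 0.72 for Itgb3, 0.63 for Itga6, 0.50 for Itga5, 0.33 for Itgav, 0.30 for Itga3, 0.26 for Itgb5 and 0.09 for Itgb1. Likeness of pattern was measured by Pearson's r over the 8 tumours for the 4 most variable members, against every named gene tested, where a high r is reached by many genes from so few points. Itga11 was most like Duoxa1 (0.988), Pi16 (0.986), a marker of adventitial fibroblasts that is also 1 of the 13 fibroblast markers used here, and Tnxb (0.984), a tenascin of connective tissue. For Itga1 the nearest genes were Cyp2a4 (0.976), Col15a1 (0.954), a collagen of basement membrane zones, and Ppp1r14a (0.946), a phosphatase inhibitor of smooth muscle. For Itgb3 they were Carmn (0.976), a smooth muscle RNA, Robo4 (0.971), an endothelial receptor, and Arap3 (0.963). For Itga6 they were Utrn (0.995), which encodes utrophin, Pax9 (0.987) and S100g (0.984). Among the 9 tested members alone, Itga6 and Itga11 were nearest to each other (0.898), as were Itga5 and Itgb3 (0.894). These values share the arrays and their scaling and carry no test.

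Each member was also set against the means of 4 marker lists over the 8 tumours, 36 relations in all, with p-values from an exact permutation test over all pairings adjusted over the 36. For 6 relations the adjusted p of Pearson's r was under 0.05, and with normexp for 0. The fibroblast, macrophage and endothelial means hold some readings that are bounds. Dpt, Cd163 and Tek, 1 in each list, were above background in 2 of 4 Ext1S100a4Cre host tumours. In tumours 1 and 4 of that host they measured -8.66 and -8.56, -8.54 and -7.68, and -7.47 and -7.63. The part of such readings in r was not tested. Itga11 followed the fibroblast mean (r = 0.897, exact permutation p = 0.00322, adjusted 0.0262, rho = 0.762) and the macrophage mean (r = 0.910, exact permutation p = 0.00188, adjusted 0.0262, rho = 0.762). Without Ext1S100a4Cre host tumour 1 and WT host tumour 3, the farthest from the median, r was 0.802 and 0.808, and after subtraction of each host's mean 0.869 and 0.874.

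Itgav followed the fibroblast (r = 0.908), macrophage (0.914) and endothelial means (0.890), with exact permutation p of 0.0029, 0.0031 and 0.00365, each adjusted to 0.0262, and rho of 0.690, 0.595 and 0.690. Without the 2 farthest tumours the r values were 0.546, 0.562 and 0.404, so the strength of the Itgav relations rested on those tumours. With all 8 tumours and after subtraction of each host's mean, r was 0.976, 0.935 and 0.924. Itga6 followed the macrophage mean (r = 0.851, exact permutation p = 0.00717, adjusted 0.043, rho = 0.714). Its r was 0.542 without the 2 farthest and 0.787 after subtraction of each host's mean. By Spearman's rho, 0 of 36 relations passed (smallest adjusted exact permutation p 0.25). The colon epithelial mean had 0 of the 6 relations, with r between -0.661 for Itgb5 and 0.514 for Itga3. The count of 6 became 0 when Ext1S100a4Cre host tumour 1, 2 or 4 or WT host tumour 3 was left out, and 3 without WT host tumour 1. Each slide row held 4 tumours, too few for a relation within it.

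**Figure D4:**
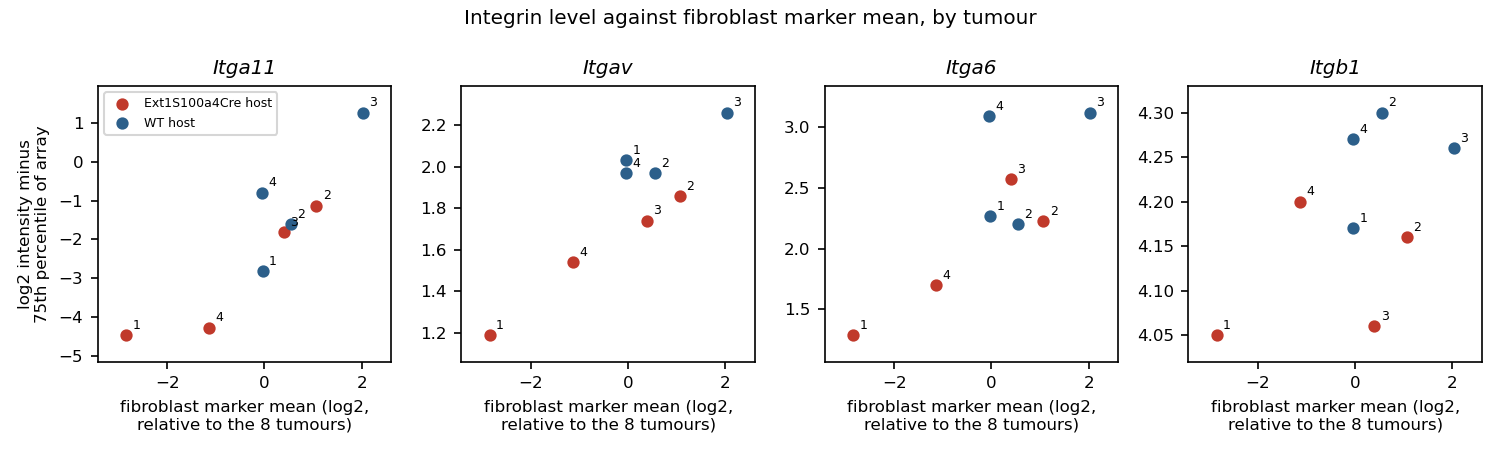
Level of Itga11, Itgav, Itga6 and Itgb1 (log2 intensity minus the array's 75th percentile, own scale per panel) against the mean of 13 fibroblast markers (log2, relative to the 8 tumours) for the Ext1S100a4Cre host (red) and the WT host (blue). Numbers are tumour numbers. Ext1S100a4Cre host tumour 1 lies at the lower left of each panel, and Itgav of the other 3 tumours of that host lies below that of every WT host tumour.

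The ligand genes of these receptors had lower means for the most part. Collagen genes that the alpha 1 and alpha 11 receptors bind or that lie in the same fibrils and networks were lower in mean for 9 of 9, with a median of -1.34 and 3 at an unadjusted p under 0.05, where 2.16% of all tested genes were at that p and lower. Without Ext1S100a4Cre host tumour 1, 7 of 9 were lower with a median of -0.87, and without tumours 1 and 4 the median was -0.65. Col3a1 differed by -2.11 (SE 0.88), Col1a1 by -1.80 (SE 0.71), Col5a1 by -1.58 (SE 0.73) and Col6a3 by -1.34 (SE 0.51), each with an adjusted p of 0.747. With tumour 1 of that host left out these 4 were -1.38, -1.14, -0.88 and -0.87. Col4a1 and Col4a2, which form the collagen IV that alpha 1 prefers, each differed by -0.28 (adjusted p = 0.861 and 0.87), or 0.17 and 0.20 without that tumour.

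Of 10 laminin chains, 7 had a lower mean, with a median of -0.40 and 2 lower at an unadjusted p under 0.05, against 2.16% of all tested genes. Lamc1, the gamma 1 chain common to most laminins, measured 2.05, 2.76, 2.37 and 2.43 in the Ext1S100a4Cre host tumours, against 2.85, 2.97, 2.79 and 3.04 in the WT host tumours. The hosts did not overlap for this 1 gene of the 10, and for 4.52% of all tested genes in either direction. Lamc1 had the smallest p of the list. The difference was -0.51 (SE 0.17, unadjusted p = 0.0145, adjusted p = 0.747), or -0.40 without Ext1S100a4Cre host tumour 1. Lama4 of vessel laminins differed by -0.80 (SE 0.37) and Lamb1, the beta 1 chain, by -0.46 (SE 0.25), each with an adjusted p of 0.747. Without Ext1S100a4Cre host tumours 1 and 4 the laminin list's median was 0.14, with 4 of 10 lower.

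RGD ligands and related adhesive proteins were lower in mean for 13 of 14, with a median of -0.82. None of those 13 was at an unadjusted p under 0.05, and 1 of the 14 was higher at that p, where 4.39% of all tested genes were. That gene was Vtn, encoding vitronectin, a ligand of the alpha V chain. It measured -2.76, -2.72, -2.76 and -1.58 in the Ext1S100a4Cre host tumours, against -4.55, -3.57, -2.85 and -2.96 in the WT host tumours, without overlap and with a difference of 1.03 (SE 0.43, adjusted p = 0.747). Vtn was the 1 gene of the 14 without overlap, against 4.52% of all tested genes in either direction. Spp1, the osteopontin gene, differed by -0.94 (SE 0.50) and Tnc, the tenascin C gene, by -2.29 (SE 1.26), or by -0.62 and -0.96 with Ext1S100a4Cre host tumour 1 left out. Edil3, encoding an RGD protein of vessels, was above background in 1 of 4 Ext1S100a4Cre host tumours and in 4 of 4 WT host tumours, so no difference is given for it. Without Ext1S100a4Cre host tumours 1 and 4 this list's median was -0.02, with 7 of 14 lower.

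The other integrin chains had no common direction. Of 8 other matrix-binding subunits 6 were tested, 3 with a lower and 3 with a higher mean (with normexp, 1 lower), and 0 were at an unadjusted p under 0.05. Itga10, a collagen receptor chain known from cartilage, differed by 0.58 (SE 0.34), Itga9 by -0.22 (SE 0.16) and Itga7, the laminin receptor chain of muscle, by 0.19 (SE 0.42). Itga8 differed by -0.50 (SE 0.67), or 0.11 without Ext1S100a4Cre host tumour 1. Its reading in that tumour (-7.10) was not well above background and is a bound, so the -0.50 rests on it. Leukocyte integrins were lower in mean for 5 of 7, with a median of -0.94 and 0 at an unadjusted p under 0.05. That median was -0.52 without Ext1S100a4Cre host tumour 1, -0.30 without WT host tumour 3 and -0.27 with array weights, each with 5 of 7 lower. The count lower was 6 of 7 with the mean of a gene's probes and 7 of 7 in the unscaled series matrix. Itga4 differed by -1.38 (SE 0.67), Itgb2, the common beta chain of leukocyte integrins, by -0.94 (SE 0.64), Itgax, known from dendritic cells and macrophages, by -1.54 (SE 1.12) and Itgal by -0.59 (SE 0.42). Higher in mean were Itgam, the brightest of the 7, by 0.11 (SE 0.15) and Itgae by 0.22 (SE 0.30).

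Genes that activate integrins or link them to actin were split, 16 of 30 lower and 14 higher in mean, with a median of -0.02 (0.01 with the array median as the scale, and 28 of 30 lower in the unscaled series matrix). Lims1, encoding the adaptor PINCH of the complex around integrin-linked kinase, measured 1.57, 1.44, 1.78 and 1.58 in the Ext1S100a4Cre host tumours, against 1.86, 1.99, 1.85 and 1.94 in the WT host tumours. The hosts did not overlap for 2 of the 30 genes, Lims1 among them, and for 4.52% of all tested genes in either direction. Lims1 had the smallest p of the 30. It was the 1 gene of the list lower at an unadjusted p under 0.05, where 2.16% of all tested genes were. The difference was -0.32 (SE 0.12, unadjusted p = 0.0294, adjusted p = 0.747). It was -0.31 without Ext1S100a4Cre host tumour 1. Tln1, encoding talin, which binds the beta chain's tail and switches integrins on, differed by -0.39 (SE 0.18), its relative Tln2 by -0.28 (SE 0.17) and Apbb1ip, an adaptor of talin in blood cells, by -0.91 (SE 0.47).

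**Figure D5:**
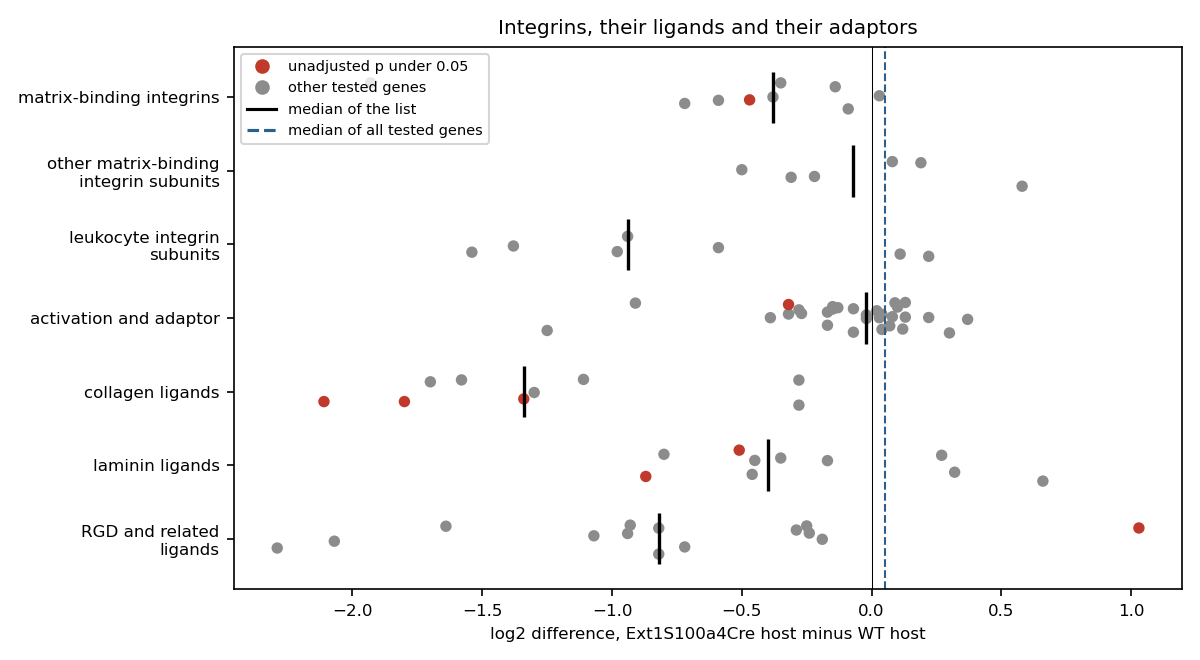
Log2 difference, Ext1S100a4Cre host minus WT host, of every tested gene (points) in the integrin list, in 2 lists of other integrin subunits, in the adaptor list and in 3 ligand lists. Red points have an unadjusted p under 0.05, black bars are list medians and the dashed line is the median of all tested genes (0.0504). Collagen genes lie lowest with a median of -1.34, and the adaptors centre on -0.02.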

How the data were processed

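Arrays were read with Agilent Feature Extraction 10.7.3.1, per the file headers (9.1 per the submitters' processing notes). The deposited processed intensity was background-subtracted and detrended within the array, per the file headers, without scaling between arrays. The other deposited columns used, beside median intensities, are flags of 0 or 1. The series matrix holds the same intensities: over 99% of probes per array differ by at most 0.01%.

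Log2 processed intensity minus the array's 75th percentile over non-control spots was used, without outlier-flagged spots (53 to 132 per array), with the spots of each probe averaged. A probe was kept if 4 or more of the 8 arrays had it well above background, and a gene is its brightest kept probe. Names came from a RefSeq table (GRCm38.p6), for 32994 of 56605 probes; the headers name build mm9, so no coordinates are given. The host difference was fitted by limma 3.58.1 under R 4.3.3 (no covariates, adjusted over 31281 genes and transcripts), and members also by an exact permutation test over 70 assignments. The tumours came from 4 mice per host per the labels and lay on 1 slide with 2 rows. With 8 arrays, their number limits the precision, as does brightness for dim probes. All members are named, with up to 4 genes per pathway list by smallest p. Col4a1, Col4a2, Dpt, Cd163, Tek, Mb, Myh1, Pf4, Itgam and Itgae, and the tumour values of Itga7, were picked after their values were seen. A gene that the rule names is not reported here. Members and lists were chosen with earlier results of these data known. Alternatives were other background corrections, scalings, filters, probe rules, blocks and variance models, and tumours left out. The model was tested on simulated data.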

Additional observations from a re-analysis of the deposited data

Results flagged for a closer look

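Within the integrin probes, no tumour stood alone in its group by Dixon's test at its 95% level (32 groups of 4 tumours examined). Among the list means 4 groups passed it, of 68 groups examined in all, where chance flags about 1 in 20. In the Ext1S100a4Cre host, tumour 1 stood apart for the integrin adaptor genes (0.875; -0.22, against -0.01 to 0.02 in the other 3 tumours of that host) and for the endothelial markers (0.849; -1.47, against -0.06 to 0.19). In the WT host, tumour 4 stood apart for the colon epithelial markers (0.855; 0.34, against -0.28 to -0.19) and tumour 3 for the neutrophil markers (0.833; 1.77, against -0.92 to -0.47). What set these tumours apart was not tested.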

How the results depend on the processing

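No member passed an adjusted p of 0.05 under any of the 21 alternatives, the lowest being 0.452. The gene-level differences of Itga5, Itga6, Itga11, Itgav, Itgb1 and Itgb3 kept their direction in all 21, although the second Itgb1 probe by itself gave 0.07. Itga3 turned to 0.00 with normexp and to 0.18 without Ext1S100a4Cre host tumours 1 and 4, and with 1 tumour left out it ran from -0.30 to 0.06. Itga1 ran from -0.72 to 0.07 with 1 tumour left out. Itgb5 turned to -0.05 with quantile scaling, -0.22 in the unscaled series matrix and -0.07 without Ext1S100a4Cre host tumours 1 and 4, and ran from -0.08 to 0.16 with 1 tumour left out. Members at an unadjusted p under 0.05 numbered 2 with normexp, the array median or the slide row as a block, 3 in the series matrix, 3 with the replicate block, 0 without Ext1S100a4Cre host tumours 1 and 4, and 0 to 2 with 1 tumour left out (0 without Ext1S100a4Cre host tumour 1 or 4 or WT host tumour 3). With no filter there were also 2, Itgav and Itga2, counted among 10 members. Itga2 was above background in 0 Ext1S100a4Cre host and 2 WT host tumours, so its count rests on bounds. Of all tested genes, 0 were called in the report's processing, 1 with normexp, 1 with array weights, 11 without Ext1S100a4Cre host tumours 1 and 4, and 0 to 2 with 1 tumour left out. Relations to marker means (6, alternatives added after seeing the data) numbered 12 with quantile scaling, 0 with the array median, 0 with normexp and 0 to 7 with 1 tumour left out. The causes were not tested. Same-numbered tumours deviated from their host means with correlations of 0.493, -0.162, 0.591 and -0.245. These 4 values do not settle whether same-numbered tumours were paired, and the sample titles give only the number. With the replicate block the adjusted p was 0.453 for Itga11 and 0.459 for Itga6.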

Other observations

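Itga7, the laminin receptor chain of muscle, measured -1.84, -0.42, 0.18 and -1.03 in the Ext1S100a4Cre host tumours, against -0.85, -1.32, -0.45 and -1.25 in the WT host tumours. Its highest values in the Ext1S100a4Cre host were those of tumours 2 and 3, in which the mean of 11 skeletal muscle markers stood at 2.76 and 3.49, against -1.16 and -0.18 in tumours 1 and 4 and -1.5 to -0.96 in the WT host. WT host tumour 3, with a muscle mean of -1.5, had an Itga7 level (-0.45) next to that of Ext1S100a4Cre host tumour 2 (-0.42).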
